A study of Homo sapiens with 32 samples.

Results

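The genes described here encode the machinery that writes N6-methyladenosine (m6A) into RNA, together with MAT2A, which encodes the enzyme that makes its methyl donor. The 10 genes were METTL3, METTL14, WTAP, VIRMA, RBM15, RBM15B, ZC3H13, CBLL1, METTL16 and MAT2A, out of 20037 protein-coding genes of the RefSeq table (GRCh38.p14). They were chosen by name, and a peak was given to a gene where it overlapped the gene body by at least 1 bp. Of 474004 peaks listed over all libraries, 424 fell in these genes.

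The libraries were immunoprecipitates of methylated RNA (MeRIP-seq) from 2 human kidney cell lines. 786-O is a clear cell renal cell carcinoma line, and RPTEC is a proximal tubule epithelial line immortalized with hTERT. Each was represented by the parental line (WT), by 2 CRISPR/Cas9 clones without SETD2 (SETD2KO-1 and SETD2KO-2), and by a clone of SETD2KO-1 that carries a full-length FLAG-tagged SETD2 transgene (SETD2KO-1R), with 2 replicates of each and no treatment. SETD2 trimethylates histone H3 on lysine 36. In each cell line the 4 SETD2KO libraries were compared with the 4 SETD2-expressing libraries (WT and SETD2KO-1R), so each knockout group rests on 2 clones and each rescue on 1. The labels do not say whether replicates came from separate cultures, and p-values then measure only the spread between these libraries.

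In the nucleus, METTL3 and METTL14 form the catalytic core of the m6A writer, in which METTL3 transfers the methyl group and METTL14 helps to hold the RNA. WTAP anchors the core to the regulatory part of the complex, where VIRMA is the scaffold, RBM15 and RBM15B bind RNA, and ZC3H13 and CBLL1 (also called HAKAI) stabilize the assembly. METTL16 is a separate methyltransferase, best known for methylating U6 snRNA and hairpins in the last exon of the MAT2A transcript, and MAT2A makes S-adenosylmethionine, the methyl donor of all these enzymes. The antibody also binds N6,2′-O-dimethyladenosine next to the cap, so the 2 marks cannot be told apart in a peak at the start of a gene.

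The lists were 25710 to 39670 peaks long in 786-O and 19249 to 31207 in RPTEC, and the 10 genes held 20 to 30 peaks per library, or 0.0681% to 0.125% of a list. The depth of each library is not in the lists, which hold no counts; the methods give a minimum number of reads per sample only. SETD2 itself had 4 to 10 peaks in every SETD2KO library and 7 to 11 in every SETD2-expressing library, so the lists by themselves do not check the knockouts. The kidney epithelium markers PAX8, PAX2, LHX1, KRT8 and KRT18 had a peak in all 8 libraries of each cell line, while CDH16 was called in 2 786-O libraries and 1 RPTEC library and EPCAM in 0 and 2. Of 7 proximal tubule markers only GGT1 had a peak in all 16 libraries, ANPEP was called in 8 RPTEC and 2 786-O libraries, and LRP2, SLC34A1, AQP1 and SLC22A6 had none in either line. The carcinoma markers VEGFA and EPAS1 had a peak in all 16 libraries of both lines and CA9 in none. The immune marker PTPRC and the endothelial marker PECAM1 had no peak, while COL1A1 was called in 1 786-O and 6 RPTEC libraries and ACTA2 in 4 and 3.

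Recurrent regions lay near the start of some writer genes. Regions were made by merging the peaks of all 16 libraries, and 4 regions that recurred in 8 or more libraries had their median summit within 500 bp of the start of the gene body, those of RBM15, RBM15B, WTAP and METTL16. Bases 21 to 50 after the RefSeq start of these 4 genes (GRCh38.p14) are shown to place the summits on the sequence, 5′ to 3′, with GGAC, the core of the best known m6A motif, in capitals.
RBM15 (chr1:110339397-110339426, plus strand): aattggccaatgaGGACtgcggggcgGGAC
RBM15B (chr3:51391305-51391334, plus strand): agatggcggcgccgggggcgctgcctcctc
WTAP (chr6:159727137-159727166, plus strand): ctgagctccggggcccgcggagctcgcgcc
METTL16 (chr17:2511839-2511868, minus strand): gagcgtatcatctgcgtttctaggagcttc
The WTAP start of the promoter table lies downstream of the first base of its gene body.

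The RBM15 window was overlapped by a peak in 16 of 16 libraries, was wholly covered by it in 14 and held the summit itself in 10. Its 2 GGAC began at bases 34 and 47 after the start. The summit of the peak nearest to the start lay 8 to 489 bases downstream of it, with a median of 30.5. Of the 9 genes with an entry in the promoter table, RBM15 was the only one with GGAC in this window, which 12.8% of 22199 windows of protein-coding genes held. On the opposite strand (read as GTCC) the motif was in 3 of the 9, METTL3, ZC3H13 and MAT2A, and in 11% of the same 22199 windows. The RBM15B window was overlapped by a peak in 12 libraries, wholly covered in 11 and held the summit in 3. The WTAP window was overlapped in 13, wholly covered in 13 and held the summit in 1. In METTL16 only 3 libraries had a peak that overlapped the window, which covered it wholly in 1. The METTL16 summits lay 231 to 366 bases downstream of the start in the 9 libraries that called the region. No strand is given for the peaks, and a match of these letters is a description of the sequence only.

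The 424 peaks merged into 54 regions, out of 82676 regions in protein-coding genes. In these genes 12 regions, 22.2%, were called in all 16 libraries, against 4.86% of regions in all protein-coding genes, and 14, or 25.9%, were called in a single library, against 35.6%. Strand was known for 42 regions. Of the 17 among them that recurred in 8 or more libraries, 4 had their summit within 500 bp of the gene start, 7 in the last 20% of the gene body and 10 in the last 50%. The table of genes used here gives no exons, so the regions could not be placed in coding sequence, introns or untranslated parts.

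**Figure D1:**
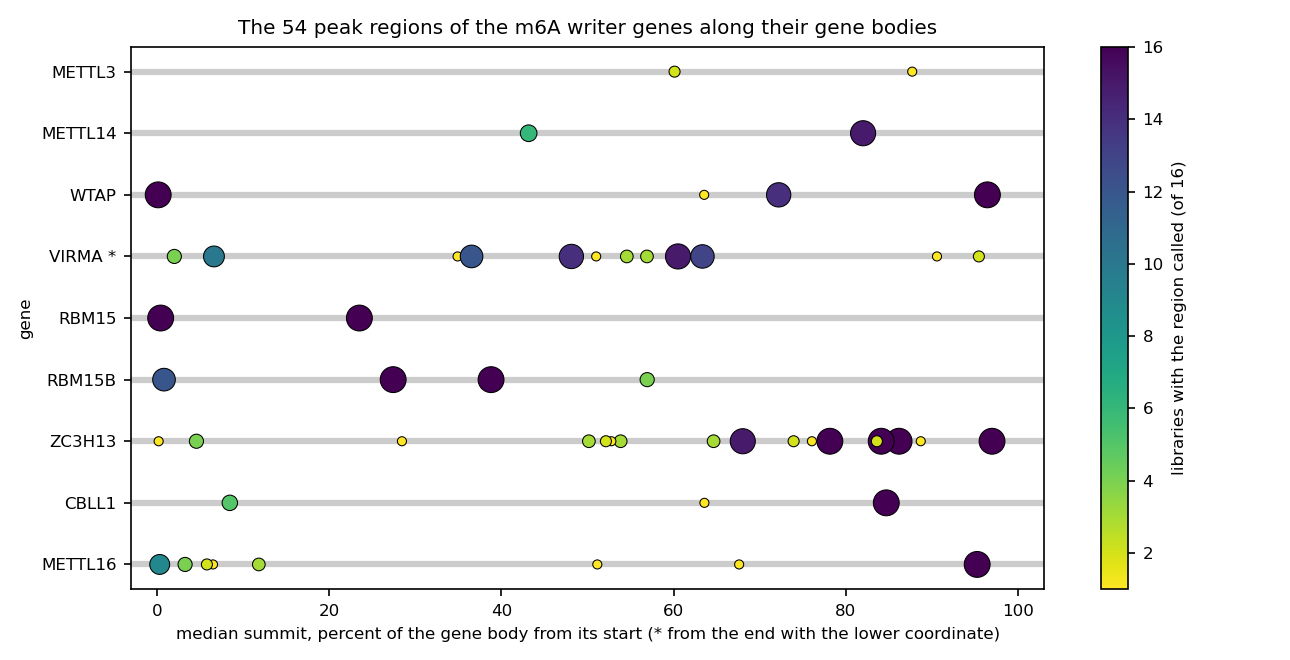
Position of the median summit of each of the 54 peak regions along its gene body, in percent of the length from the start (from the end with the lower coordinate for VIRMA). Size and colour of a point give the number of libraries, of 16, that called the region; the regions called in all 16 sit between 78.1% and 97.0% in ZC3H13, CBLL1 and METTL16, at both ends of WTAP, and before 50% in RBM15 and RBM15B.

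Of the catalytic core, METTL3 had a peak in only 3 of 16 libraries, and each of these 3 libraries held 1. The 786-O WT replicate 1 peak was in a region at chr14:21499704-21500029, 1623 bp before the gene end, and ranked at percentile 6.46 of its list. Percentiles are given by score within a library, 100 being the highest peak, because the scale of the score is not given in the sources used here. The other 2 peaks, of 786-O SETD2KO-1 replicate 1 and RPTEC SETD2KO-1R replicate 1, shared a region at chr14:21503318-21503610 and stood at percentiles 42.0 and 32.0. No 2 replicates of a line both had a METTL3 peak.

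METTL14 was called in 15 of 16 libraries, all but RPTEC SETD2KO-2 replicate 2, which had the shortest list. In 786-O its peak number was 1 and 1 in WT, 2 and 1 in SETD2KO-1, 2 and 3 in SETD2KO-2, and 1 and 2 in SETD2KO-1R. In RPTEC it was 1 and 2 in WT, 1 and 1 in SETD2KO-1, 2 and 0 in SETD2KO-2, and 4 and 1 in SETD2KO-1R. Replicates of a line differed by up to 1 peak in 786-O and up to 3 in RPTEC. The 15 libraries shared a region at chr4:118709783-118711094, whose median summit was 24632 bp from the start, at 82.0% of the gene body, and 6 libraries called a further region at chr4:118697720-118698781.

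The adaptor WTAP held 2 to 4 peaks in every library. The region at its start, chr6:159726305-159727915, was called in 16 libraries, the region closest to its end, chr6:159754784-159755517, also in 16, and one between them, chr6:159747793-159748899, in 14. All 4 WTAP regions lie in the body of SOD2, which overlaps the gene, and since the lists give no strand, peaks of the 2 genes cannot be told apart. For the other members no region overlapped another gene of the table.

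The scaffold VIRMA and the stabilizing subunit ZC3H13 had the most peaks and are long genes, of 65781 and 98282 bp. VIRMA held 2 to 9 peaks per library in 12 regions, of which none was called in all 16 libraries and 5 were called in 10 to 15. The region called most often (15 libraries) lay at 60.5% of the gene body from the end with the lower coordinate, and the 1 with the highest scores, at 63.3%, was called in 13 libraries at median percentiles of 95.9 in 786-O and 96.5 in RPTEC. ZC3H13 held 4 to 9 peaks per library in 17 regions. Its best peak was between percentiles 98.2 and 99.9 of the list in every library, and the median of 99.2 was above that of 99.2% of the protein-coding genes with a peak.

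The ZC3H13 regions called in every library were 4, at chr13:45956819-45957531, chr13:45967625-45968261, chr13:45968906-45970230 and chr13:45975365-45976465, and a region at chr13:45985458-45986025 was called in 15. They covered the part between 68.0% and 97.0% of the gene body, and the region at 78.1% was the highest ranked, with a median percentile of 99.3 in 786-O and 99.0 in RPTEC. The 8 regions of ZC3H13 upstream of this part were called in 1 to 4 libraries each.

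RBM15 and RBM15B are short genes, of 7301 and 6624 bp, and were the most densely covered. RBM15 had 3.17 peaks and RBM15B 4.62 peaks per 10 kb of gene body (means over 16 libraries), against 1.12 for WTAP, 0.855 for VIRMA, 0.687 for ZC3H13 and 0.240 for METTL16. Peaks covered 32.4% of the RBM15 body and 32.4% of the RBM15B body, a larger share than in 98.4% of the protein-coding genes with a peak. Introns count in these lengths. In RBM15 the 2 regions, chr1:110339251-110340518 and chr1:110340548-110342253, were each called in 16 libraries. In RBM15B the regions chr3:51392104-51393484 and chr3:51393618-51394652 were called in 16, and the region at the start, chr3:51391133-51391883, in 12.

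CBLL1, an E3 ubiquitin ligase, held 1 to 3 peaks per library, and its region at chr7:107757942-107759190, at 84.7% of the gene body, was called in 16. METTL16 held 1 to 4 peaks. Its region at chr17:2419887-2420758, 4565 bp before the gene end, was called in 16 libraries, and the region at its start, chr17:2511271-2511872, in 9.

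MAT2A had no peak in any of the 16 libraries. This was also true of 6617 protein-coding genes, or 33%, while 7 of the 10 genes, or of the 9 with any peak (WTAP, VIRMA, RBM15, RBM15B, ZC3H13, CBLL1 and METTL16) had a peak in all 16, as did 23.1% of all protein-coding genes and 34.5% of the 13420 with any peak. The MAT2A body is 6114 bp long (chr2:85539168-85545281). The closest peak on the side of the lower coordinates was 776 to 211311 bp away and on the other side 4450 to 64384 bp, depending on the library. Of the neighbouring genes, GGCX, which overlaps MAT2A, was called in 4 libraries, VAMP8 in 4 and CAPG in 13. A gene absent from a list may hold m6A that was not called at the depth of that library. MAT2B, the regulatory subunit of the same enzyme, was called in 1 library, and MAT1A, the liver form, in none.

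**Figure D2:**
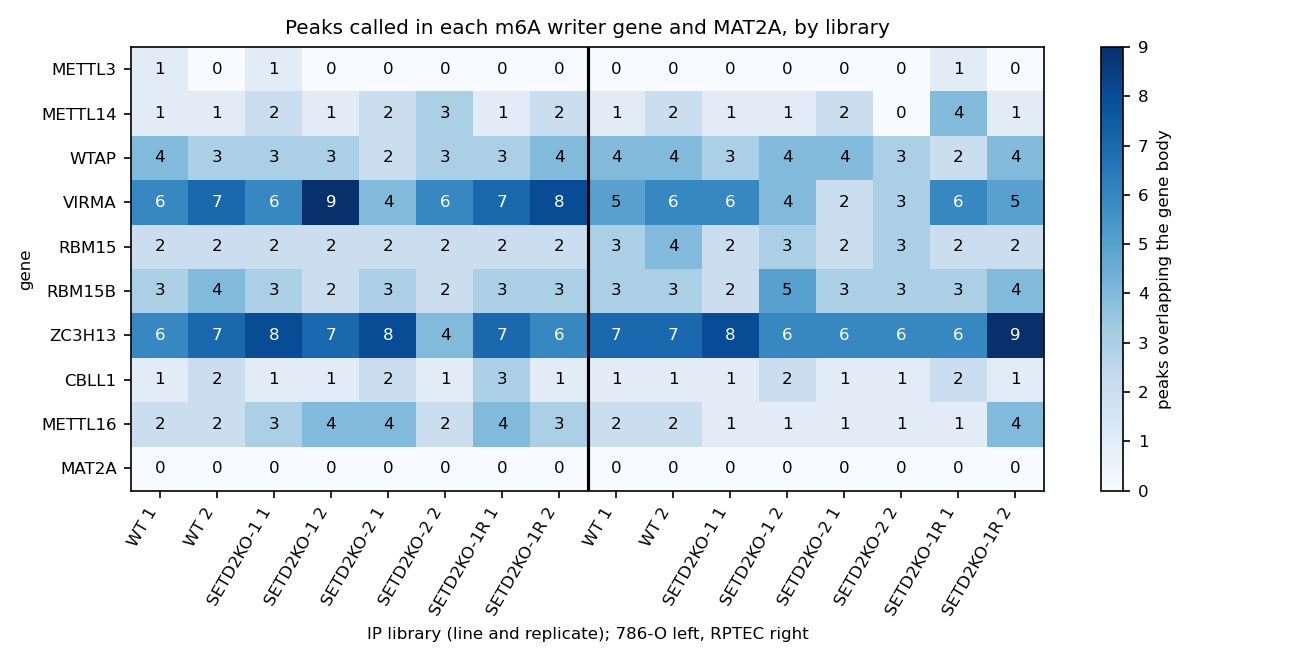
Number of peaks overlapping each of the 10 genes in each of the 16 immunoprecipitated libraries, with the 786-O libraries left of the black line and the RPTEC libraries right of it. The rows of MAT2A and METTL3 are at 0 in 16 and 13 libraries, and those of VIRMA and ZC3H13 reach 9.

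The first comparison asked whether the loss of SETD2 went with more or fewer peaks in the writer genes. In 786-O, 9 of the 10 genes had a peak in at least 2 libraries and could be tested. Mean peak numbers were higher in SETD2KO for 3, lower for 4 and equal for 2 (45.3% and 38.9% of all genes were higher and lower), with a median difference of 0, the same as over the 11596 protein-coding genes tested. By the exact two-sided permutation test over libraries, 0 of the 9 had p under 0.05 in peak number, against 2.6% of all genes tested, and 0 had an adjusted p under 0.05. The smallest p that 4 against 4 libraries allow is 0.0286, and after Benjamini-Hochberg adjustment no gene of the table passed. With the 4 lines of a cell line permuted as pairs, the smallest exact permutation p would be 0.333. VIRMA, for instance, had 6, 9, 4 and 6 peaks in SETD2KO and 6, 7, 7 and 8 in SETD2-expressing libraries (6.25 ± 2.06 against 7.0 ± 0.816, SD, n = 4 each, exact permutation p = 0.686). RBM15 had 2 peaks in each of the 8 libraries.

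In RPTEC the 8 genes tested had a median difference in peak number of -0.5, where all 11178 genes had -0.25. Means were lower in SETD2KO for 5, against 53.9% of all genes, and equal for 3. None of the 8 had an exact permutation p under 0.05, against 2.64% of all genes. VIRMA had 6, 4, 2 and 3 peaks in SETD2KO and 5, 6, 6 and 5 in SETD2-expressing libraries (3.75 ± 1.71 against 5.5 ± 0.577, exact permutation p = 0.171). The groups share the value 6, and the 2 lowest values are those of SETD2KO-2. Without SETD2KO-1 replicate 1, the difference was -2.5 with an exact permutation p of 0.0286. METTL16 had 1 peak in each SETD2KO library and 2, 2, 1 and 4 in SETD2-expressing ones (1.0 ± 0 against 2.25 ± 1.26, exact permutation p = 0.143). The groups share the value 1, which is that of SETD2KO-1R replicate 1, and without this library the exact permutation p was 0.0286.

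Whether a gene was called at all could not be compared for most members, since they had a peak in every library of the cell line. Calls varied only for METTL3 in 786-O (1 of 4 SETD2KO and 1 of 4 SETD2-expressing libraries) and, among the members tested in RPTEC, for METTL14 (3 of 4 and 4 of 4). Fisher's exact test had p under 0.05 for neither, which says nothing of the other members, and for 0.759% and 0.993% of all genes tested in 786-O and RPTEC. None of the 54 regions was called in all 4 libraries of a status and in none of the other 4, in either cell line. Of the 65076 regions of protein-coding genes seen in 786-O, 0.281% had this pattern for SETD2KO and 0.155% for SETD2-expressing libraries. In RPTEC it was 0.207% and 0.216% of 56915.

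The rank of the best peak separated the groups for METTL16 in RPTEC. The best METTL16 peak stood at percentiles 28.7 and 52.1 in the SETD2KO-1 replicates and 55.4 and 28.3 in the SETD2KO-2 replicates. In WT it stood at 71.2 and 67.1, and in SETD2KO-1R at 84.1 and 60.6. The 4 SETD2KO values lay below the 4 SETD2-expressing values in these libraries (41.1 ± 14.6 against 70.7 ± 9.91, SD, n = 4 each), with an exact permutation p of 0.0286, the smallest possible, and an adjusted p of 0.643 over 11178 genes. Groups that do not overlap in this direction were found for 2.28% of all genes tested, so METTL16 was 1 of 8 members against a background of 4.45% in either direction.

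In 7 of the 8 RPTEC libraries the best METTL16 peak lay in the region close to the gene end that every library called, and in SETD2KO-1R replicate 2 it was the start region. In the region close to the end alone, RPTEC percentiles were 28.3 to 55.4 in SETD2KO and 58.7 to 84.1 in SETD2-expressing libraries. In 786-O this region stood at 83.0 ± 13.9 in SETD2KO and 59.8 ± 37.4 in SETD2-expressing libraries, of which SETD2KO-1R replicate 2 was at 6.39. The region at the start was called in 0 of 4 SETD2KO libraries and in 2 of 4 SETD2-expressing libraries of RPTEC. In 786-O the order of the best peak was not the same: 63.9, 81.8, 95.5 and 90.8 in SETD2KO against 61.8, 85.8, 85.4 and 58.4 in SETD2-expressing libraries (83.0 ± 13.9 against 72.8 ± 14.8, exact permutation p = 0.286). The 786-O groups overlap. The effect in 786-O exceeded that in RPTEC by 39.8 percentile points (exact permutation of status within each cell line, p = 0.0163, adjusted p = 0.667). That p was under 0.05 for 6.2% of all genes.

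The METTL16 difference did not keep its p in every setting. With lists shortened to the same number of peaks it was -32.9 points with an exact permutation p of 0.0571, and in that setting RBM15B (71.2 ± 7.03 in SETD2KO against 83.2 ± 3.37) was the member with p = 0.0286. Without WT replicate 1, WT replicate 2 or SETD2KO-1R replicate 2 the difference was -29.5, -30.8 and -33.0 points and the exact permutation p 0.0571 each, and without SETD2KO-1R replicate 1 it was -25.2 points with p = 0.0857. The groups do not overlap in these 4 sets either. Without any 1 of the 4 SETD2KO libraries the difference was -25.3 to -34.4 points with an exact permutation p of 0.0286 each.

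The other members did not separate by rank. In RPTEC 6 of 8 genes had a lower mean percentile in SETD2KO, against 58.1% of all genes, with a median difference of -3.57 against -2.02 over all genes. In 786-O it was 6 of 9, against 49% of all genes, with a median of -1.57 against 0.18, and 0 of 9 had an exact permutation p under 0.05 where 5.02% of all genes had. RBM15B in RPTEC stood at 78.5, 86.7, 72.1 and 71.2 in SETD2KO and at 85.7, 84.6, 89.4 and 92.3 in SETD2-expressing libraries (77.1 ± 7.19 against 88.0 ± 3.53, exact permutation p = 0.0857, adjusted p = 0.833). SETD2KO-1 replicate 2 overlaps the other group, and without it the exact permutation p was 0.0286. ZC3H13 stood at a mean of 99.3 in SETD2KO and 98.99 in SETD2-expressing libraries of 786-O, and at 98.8 and 99.2 in RPTEC.

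**Figure D3:**
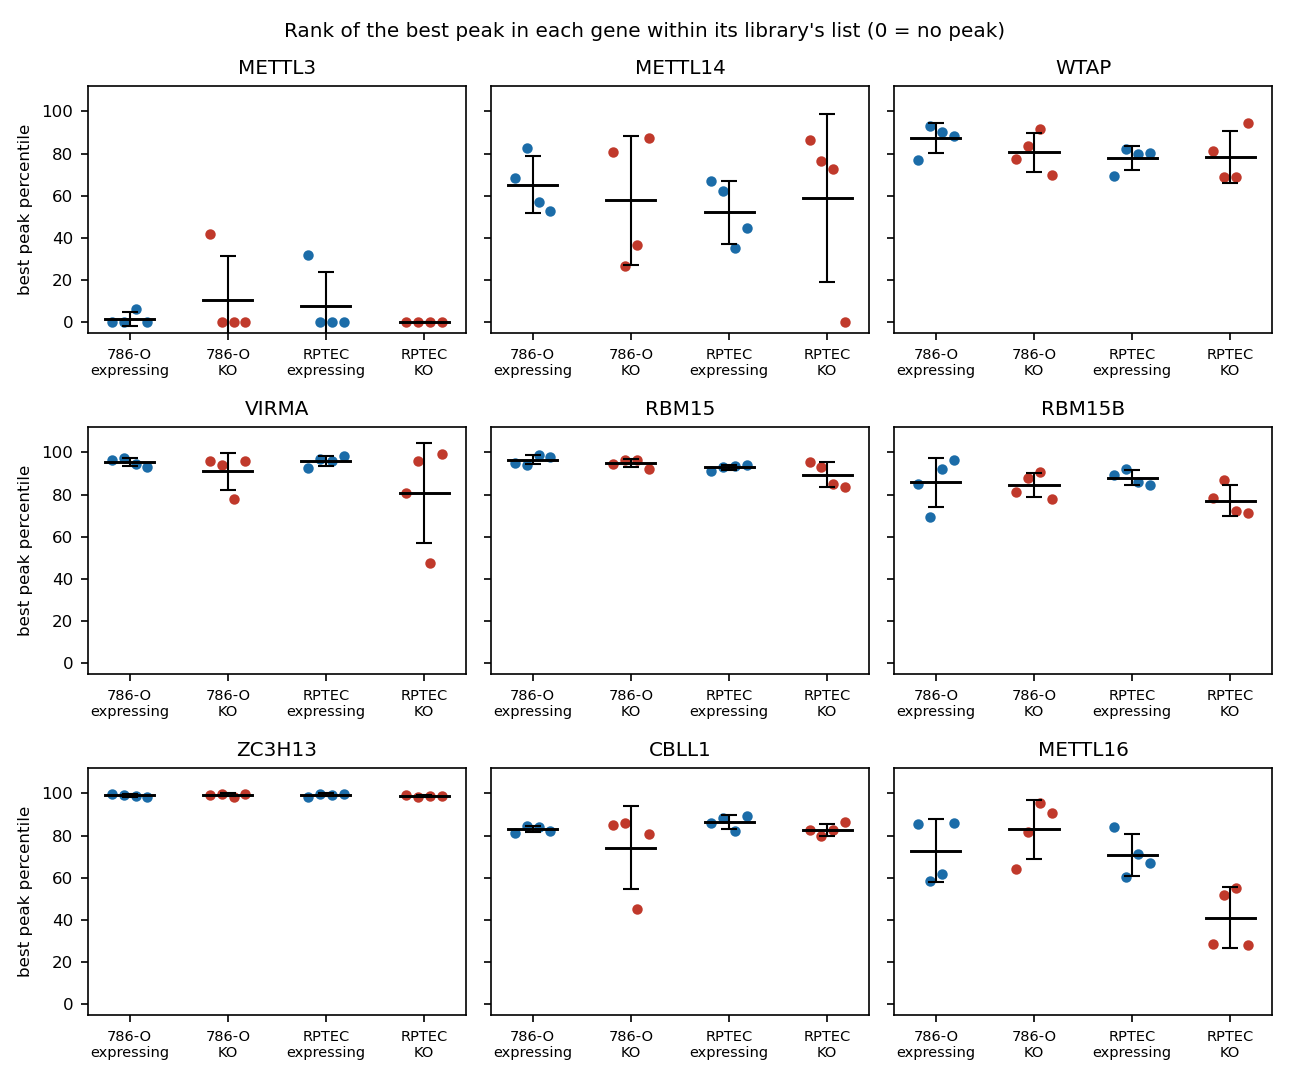
Percentile of the best peak of each gene within the list of its library (y axis, 0 where the library had no peak), by cell line and SETD2 status. Each point is 1 library, and the black line and bar give the mean and SD of 4 libraries; METTL16 in RPTEC is the panel in which the SETD2KO points (28.3 to 55.4) lie below the SETD2-expressing points (60.6 to 84.1).

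The second comparison set the 8 786-O libraries against the 8 RPTEC libraries, with SETD2 status balanced. The cell lines differ in origin, medium and list length, which cannot be told apart. Each side is 1 cell line, its 8 libraries coming from 4 related lines, so the p-values measure only the spread between these libraries. None of the 9 members tested passed the adjusted threshold in peak number or rank, where 5.75% and 6.73% of 12685 genes did. VIRMA had 4, 6.5 and 9 peaks in 786-O (lowest, median and highest) and 2, 5 and 6 in RPTEC (6.63 ± 1.51 against 4.63 ± 1.51, SD, n = 8 each, exact permutation p = 0.0294, adjusted p = 0.186). METTL16 had 2, 3 and 4 peaks in 786-O and 1, 1 and 4 in RPTEC (3.0 ± 0.926 against 1.63 ± 1.06, exact permutation p = 0.0326, adjusted p = 0.198). The 4 belongs to SETD2KO-1R replicate 2, and without that library the difference was 1.71 with an adjusted p of 0.0492 (exact permutation test). Unadjusted p under 0.05 with more peaks in 786-O was found for these 2 of 9 genes and for 14% of all genes.

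With every list shortened to an equal length VIRMA had 5.0 ± 1.07 against 3.25 ± 1.39 peaks (difference 1.75, exact permutation p = 0.0232), and METTL16 differed by 0.5 peaks (exact permutation p = 0.231). Per 10000 peaks of the list, neither gene had an exact permutation p under 0.05 (VIRMA 0.331, METTL16 0.0606), and RBM15 was lower in 786-O (0.619 ± 0.0862 against 1.03 ± 0.408, exact permutation p = 0.00295, adjusted p = 0.0413). WTAP (0.986 against 1.35, exact permutation p = 0.0396), RBM15B (0.885 against 1.23, p = 0.0124) and ZC3H13 (2.02 against 2.64, p = 0.0124) were also lower on that scale and did not pass after adjustment. In base pairs covered, VIRMA was higher in 786-O (2661 ± 489 against 1599 ± 605 bp, exact permutation p = 0.000777, adjusted p = 0.0145). METTL16 covered 1558 ± 638 against 688 ± 442 bp (exact permutation p = 0.00824, adjusted p = 0.0544) and RBM15 2524 ± 227 against 2207 ± 307 bp (exact permutation p = 0.0379, adjusted p = 0.140), which did not pass after adjustment. The direction for RBM15 therefore differed between the scales. WTAP, RBM15B and ZC3H13 also had fewer peaks and more base pairs covered in 786-O than in RPTEC, for WTAP 3.13 against 3.5 peaks and 2028 against 1910 bp. The share of all genes past a threshold on these scales, or at equal list length, was not counted. The 786-O lists were longer (median 32377.5 against 26754 peaks) and their peaks wider (median 402 against 379.5 bp). Whether these members differed from genes in general on these scales was not tested.

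By rank, METTL16 was at 58.4, 83.6 and 95.5 in 786-O (lowest, median and highest) and at 28.3, 58.0 and 84.1 in RPTEC (77.9 ± 14.4 against 55.9 ± 19.6, exact permutation p = 0.0239, adjusted p = 0.150). RBM15 was at 92.2 to 98.6 and 83.7 to 95.6 (95.7 ± 2.12 against 91.2 ± 4.41, exact permutation p = 0.0115, adjusted p = 0.0989). The ranges overlap for both genes. A higher rank in 786-O with unadjusted p under 0.05 was found for these 2 of 9 members and for 14.6% of all genes.

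No region was called in all libraries of a cell line and in none of the other, a pattern that 0.134% of all regions had for 786-O and 0.156% for RPTEC. At least 6 of 8 libraries of 786-O and at most 2 of 8 of RPTEC called 1 of the 54 regions, 1.85%, against 2.11% of all regions. It was the METTL16 start region, called in 7 786-O libraries (all 4 SETD2KO and 3 of 4 SETD2-expressing) and in 2 RPTEC libraries (WT replicate 1 and SETD2KO-1R replicate 2). No region had the opposite pattern, which 0.918% of all regions had. Of the 54 regions, 35 (64.8%) were called in at least 1 library of each cell line, against 47.6% of all regions in protein-coding genes. A further 13 (24.1%, against 31.2%) were called in 786-O libraries alone and 6 (11.1%, against 21.3%) in RPTEC libraries alone.

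The genes around the writers were read from 4 lists of 38 genes. Of 5 other RNA m6A methyltransferases and their partner (METTL5, TRMT112, ZCCHC4, PCIF1 and METTL4), 4 were tested between the cell lines and none had an exact permutation p under 0.05 in peak number, where 14% of all genes did with more peaks in 786-O. By rank 1 did (14.6% of all genes, higher in 786-O), METTL4, named after its values were seen, at 31.1 ± 24.5 in 786-O against 4.15 ± 8.65 in RPTEC (exact permutation p = 0.0126, adjusted p = 0.104), and the median difference of the 4 was 24.9 points against 4.21 over all genes. TRMT112, the activator of METTL5, was called in 15 libraries, PCIF1, which makes the cap-adjacent mark, in 12, METTL4 in 8, ZCCHC4 in 3 and METTL5 in 1.

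The 16 genes of the S-adenosylmethionine cycle included some with more peaks in 786-O. Of 14 tested among 16, 11 had a higher mean in 786-O, against 64.6% of all genes, 5 with an exact permutation p under 0.05 (14% of all genes) and 2 after adjustment (5.75% of all genes in either direction), with a median difference of 0.75 against 0.25 over all genes. GNMT, which uses up S-adenosylmethionine by methylating glycine, had 1 to 3 peaks in each of the 8 786-O libraries and none in the 8 RPTEC libraries (exact permutation p = 0.000155, adjusted p = 0.00785), and 0.978% of all genes had groups that do not overlap in this direction. AHCY, which breaks down the S-adenosylhomocysteine left by methylation, had 2 to 6 peaks in 786-O and 0 to 3 in RPTEC (4.13 ± 1.89 against 0.75 ± 1.04, exact permutation p = 0.00202, adjusted p = 0.0387). The AHCY ranges overlap, and its 4 RPTEC libraries at 0 were those of SETD2KO-2 and SETD2KO-1R. Without any 1 of these 4 libraries, or without RPTEC SETD2KO-1 replicate 1, the adjusted p of AHCY was 0.0508 to 0.0561. With the higher-scoring 50% of each list the adjusted p of both genes was 0.116, and with every list shortened to an equal length it was 0.109. MTR, methionine synthase, had 7.63 ± 2.72 against 3.88 ± 0.641 (exact permutation p = 0.00373, adjusted p = 0.0592), and with lists of equal length it differed by 1 peak (exact permutation p = 0.184). No gene of the list had an exact permutation p under 0.05 in peak number by SETD2 status, in 13 tested in each cell line. By rank, NNMT, which uses S-adenosylmethionine to methylate nicotinamide, was the only gene of the list with an exact permutation p under 0.05 by SETD2 status. It stood at percentiles 72.9, 0, 55.5 and 0 in the 786-O SETD2KO libraries and 89.3, 99.1, 73.1 and 91.9 in the SETD2-expressing ones (32.1 ± 37.7 against 88.4 ± 10.97, exact permutation p = 0.0286, adjusted p = 0.569). The NNMT groups did not overlap, as for 2.22% of all genes in this direction, and the gene was chosen after its values were seen.

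Among 12 readers and erasers, FTO, an m6A demethylase, had more peaks in 786-O, with 7.0 ± 2.83 against 2.38 ± 1.69 (exact permutation p = 0.0014, adjusted p = 0.0301). Without RPTEC SETD2KO-2 replicate 2, the library with no FTO peak, the adjusted p was 0.0606, and with the higher-scoring 50% of each list it was 0.317. In 786-O it had 8, 7, 12 and 10 peaks in SETD2KO and 5, 5, 5 and 4 in SETD2-expressing libraries (9.25 ± 2.22 against 4.75 ± 0.5, exact permutation p = 0.0286, adjusted p = 1). The groups did not overlap, which held in this direction for 1.63% of all genes. Among the higher-scoring 50% of peaks the FTO difference by SETD2 status was 1.5 peaks with an exact permutation p of 0.171, and without any 1 of the 4 SETD2-expressing libraries it was 4.25 to 4.58 with p = 0.0571. In RPTEC, 0 of the 11 readers and erasers tested, FTO among them, had an exact permutation p under 0.05 in peak number by SETD2 status. It was 2.64% of all genes tested there. ALKBH5, the other demethylase, had 2.5 ± 0.926 peaks in 786-O and 1.38 ± 0.518 in RPTEC (exact permutation p = 0.0238, adjusted p = 0.169). The unadjusted p of ALKBH5 was under 0.05 in 4 of 10 alternative settings and reached 0.706 with lists of equal length, where the difference was 0.25 peaks. The 11 readers and erasers tested had a higher mean peak number in 786-O, as did 64.6% of all genes, with a median difference of 0.5 against 0.25 over all genes.

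Of 5 writers of H3K36 methylation, SETD2 had 6, 4, 4 and 5 peaks in the SETD2KO libraries of RPTEC and 7, 10, 11 and 10 in the SETD2-expressing ones (4.75 ± 0.957 against 9.5 ± 1.73, exact permutation p = 0.0286, adjusted p = 1). The RPTEC groups did not overlap, as for 1.54% of all genes in this direction. In 786-O it had 5, 10, 5 and 4 against 8, 10, 7 and 9 (exact permutation p = 0.2). The SETD2KO-1R libraries hold RNA of the transgene, which cannot be told apart from that of the gene itself in these lists. Without any 1 of the RPTEC SETD2KO libraries the difference was -4.5 to -5.17 peaks with an exact permutation p of 0.0571, and the groups still did not overlap. Per 10000 peaks the difference was -1.50 (exact permutation p = 0.0571). NSD1, NSD2, NSD3 and ASH1L had a peak in all 16 libraries and no exact permutation p under 0.05 in peak number in any of the 3 comparisons.

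**Figure D4:**
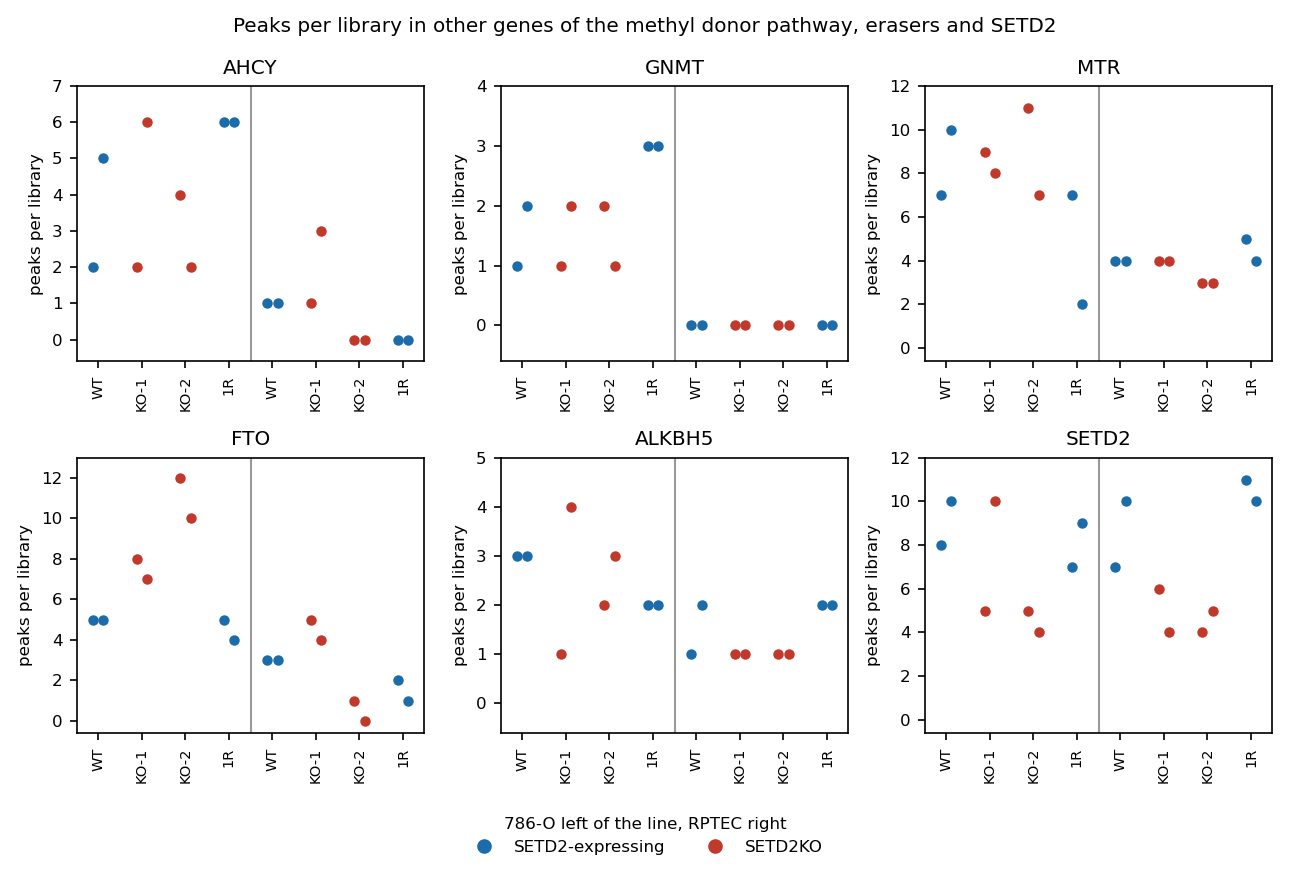
Peaks per library (y axis) in 6 genes of the methyl donor cycle, the erasers and SETD2, with the 4 786-O lines left of the grey line and the 4 RPTEC lines right of it. Each point is 1 library, red for SETD2KO and blue for SETD2-expressing; GNMT is at 0 in the 8 RPTEC libraries and at 1 to 3 in the 8 786-O libraries.

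Likeness to METTL3 and MAT2A was measured by Spearman's rank correlation of the base pairs covered over the 16 libraries, among 9684 genes with a peak in at least 8. For METTL3 the 3 genes most like it were CDK5 (rho = 0.696), HM13 (0.682) and PET117 (0.679). Since METTL3 is at 0 in 13 libraries, these values rest on the 3 libraries with a peak. For MAT2A, at 0 throughout, no likeness could be computed.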

How the data were processed

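Total RNA of 786-O and RPTEC lines was immunoprecipitated for m6A and sequenced with a matched input (SMARTer Stranded Total RNA-Seq v3 Pico kit). Per the labels and the methods, the authors aligned reads with STAR to hg38, used HTSeq, scaled by an E. coli spike-in and called peaks in each immunoprecipitated library over its input with MACS2. The deposited lists give each peak a position, a summit and a score, per the file headers a browser track of 1 library each; the fold and p columns are 0 throughout. The scale of the score is not given in the sources used here, so scores were only ranked within a list. The input samples were not analysed here. Input level, RNA amount and depth cannot be corrected for.

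Gene bodies came from RefSeq (GRCh38.p14), and the start sequences from its promoter table, in which 9 of the 10 genes matched. Peaks were counted per gene and library with Python 3.11.15, numpy 2.4.6, pandas 2.3.3 and scipy 1.17.1. Protein-coding genes with a peak in at least 2 libraries were tested by exact two-sided permutation of libraries, checked on simulated data, with Benjamini-Hochberg adjustment over all of them. A gene without a peak was set to percentile 0. Fisher's exact test was used for calls.

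All 10 members were described. Coordinates were printed for regions called in 8 or more libraries and, chosen after their values were seen, for the other regions of METTL3 and METTL14, but not for VIRMA. Other genes were named where the unadjusted p in peak number was under 0.05, at most 3 per list and direction, or to complete a short list, and METTL4, NNMT and MTAP after their values were seen. The members, lists and rules were chosen with earlier results of these data known. Alternatives were score, overlap, length, list size, merging, replicate block, tested genes, peak scale and leaving out each library. Of the cell type markers, 1 is not reported here.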

Additional observations from a re-analysis of the deposited data

Results flagged for a closer look

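In 102 sets of 4 or 8 libraries with any spread, member values were searched for a library far from the others (Dixon's 95% limit). That limit flags about 1 of 20 sets of independent, normally distributed values. Here sets of 4 lie within sets of 8 and many values are tied or 0, so this rate does not apply. A library past the limit was found in 25 sets. Of these, 14 concern peak numbers, where a difference of 1 or 2 whole peaks is enough. METTL3 was at 1 against 0 in single libraries of 786-O SETD2KO, 786-O SETD2-expressing, RPTEC SETD2-expressing and all RPTEC libraries. METTL14 was at 2 in 786-O SETD2KO-1R replicate 2, WTAP at 2 in 786-O SETD2KO-2 replicate 1 and RPTEC SETD2KO-1R replicate 1, RBM15B at 4 in 786-O WT replicate 2 and RPTEC SETD2KO-1R replicate 2, and ZC3H13 at 8 in RPTEC SETD2KO-1 replicate 1. CBLL1 was at 2 in 786-O SETD2KO-2 replicate 1, RPTEC SETD2KO-1 replicate 2 and RPTEC SETD2KO-1R replicate 1. METTL16 was at 4 in RPTEC SETD2KO-1R replicate 2, where the next value was 2.

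The other 11 concern the best peak percentile. METTL3 was at 42.0 in 786-O SETD2KO-1 replicate 1, at 6.46 in 786-O WT replicate 1 and at 32.0 in RPTEC SETD2KO-1R replicate 1, with 0 in the rest. METTL14 was at 0 in RPTEC SETD2KO-2 replicate 2, where the next value was 72.6. VIRMA was at 78.0 in 786-O SETD2KO-2 replicate 1 (next value 93.0 among the 786-O libraries) and at 47.6 in RPTEC SETD2KO-2 replicate 1 (next value 80.6). CBLL1 was at 45.1 in 786-O SETD2KO-2 replicate 1, the library with the longest list, where the next value was 80.9.

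For METTL16, the SETD2 effect on the best peak percentile differed between the cell lines by 39.8 points (exact permutation p = 0.0163, adjusted p = 0.667 over 12685 genes), being 10.2 in 786-O and -29.6 in RPTEC. It was 34.97 to 46.2 points when each library was left out in turn, with an exact permutation p of 0.00449 to 0.0367.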

How the results depend on the processing

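Between the cell lines RBM15, RBM15B, WTAP and ZC3H13 were lower in 786-O in peak number and higher in base pairs covered. The counts of members past a threshold moved as follows. For these alternatives the share of all genes past the same threshold was not counted, so the members cannot be set against genes in general. Per share of the list, 1 member (RBM15B) had p under 0.05 by SETD2 status in 786-O in place of 0, and 4 had it between the cell lines in place of 2. The upper 50% by score, the minimum peak length of 288 bp and the same number of peaks per library each left 1 (VIRMA). With the same number of peaks the 2 members by rank between the cell lines were RBM15 and CBLL1 (63.7 in 786-O against 78.6 in RPTEC, exact permutation p = 0.0291), in place of RBM15 and METTL16. After adjustment 1 member passed between the cell lines in base pairs covered (VIRMA) and 1 per share of the list (RBM15), in place of 0. The METTL16 start region was not kept by the pattern of 6 and 2 of 8 libraries with the upper 50% by score or the same number of peaks (0 regions each), and with the upper 50% 1 region had the opposite pattern in place of 0. Leaving out 1 library gave 0 to 1 members in peak number and 0 to 2 in rank by SETD2 status in RPTEC, and 2 to 3 (unadjusted) and 0 to 1 (adjusted) in peak number between the cell lines; the other counts kept their value. The replicate numbers did not pair libraries: deviations of same-numbered replicates correlated at -0.0492 to 0.198 in 786-O and -0.172 to 0.182 in RPTEC (6 pairs of lines each). With the replicate block 0 members had p under 0.05 by rank in RPTEC in place of 1, since the smallest p it allows there is 0.0556. The cause of the other shifts was not tested. The depth of each library, of which only a minimum is stated, limits what a missing peak can show.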

Other observations

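MTAP, which salvages methionine from methylthioadenosine, is given for its values, chosen after these were seen. It had 9 to 16 peaks in 14 libraries and 0 in both replicates of RPTEC SETD2KO-2. In that line 85 protein-coding genes had no peak in either replicate and a peak in each of the 6 other RPTEC libraries, and the corresponding numbers in the other 7 lines were 18 to 108. None of the 10 writer genes was among them in any line.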
